A study of Mus musculus with 46 samples.

Results

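A set of 10 genes that supply the building blocks of fatty acid synthesis was followed in livers of mice fed a lipid-rich diet (LD) or a carbohydrate-rich diet (CD). They were chosen by symbol among the 25494 rows of the RNA-seq count table, and all 10 were found and passed the filter on low counts. Slc25a1, Acly and Acss2 serve the supply of acetyl-CoA in the cytosol, Acaca, Acacb, Fasn and Thrsp serve malonyl-CoA and its use, and Me1, G6pdx and Pgd make NADPH. RNA of 6 of the 10 genes (Acaca, Acacb, Fasn, G6pdx, Acss2 and Acly) fell on LD, against 11.1% of all tested genes, none rose by edgeR, and Slc25a1, Thrsp, Me1 and Pgd did not pass the test. H3K27ac, a histone mark of active promoters and enhancers, covered less of 6 genes and their surroundings in all LD libraries than in any CD library, against 5.83% of all genes. Of these genes, 5 were among the 6 whose RNA fell, a combination found in 2.02% of all genes.

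In the liver, fatty acids are made in the cytosol from acetyl-CoA. Citrate leaves the mitochondrion through the carrier Slc25a1, Acly (ATP citrate lyase) splits it into acetyl-CoA and oxaloacetate, and Acss2 makes acetyl-CoA from acetate. Acaca and Acacb, the acetyl-CoA carboxylases, add a carboxyl group to give malonyl-CoA, which Fasn, the fatty acid synthase, joins into palmitate with NADPH as the reductant. NADPH comes from malic enzyme (Me1) and from the oxidative pentose phosphate pathway, whose dehydrogenases are G6pdx and Pgd. Thrsp, also called Spot 14, is a protein of lipogenic tissues that responds to thyroid hormone and to carbohydrate feeding. Hnf4α and C/EBPα are transcription factors that define the hepatocyte.

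The mice were male C57BL/6 animals, which the authors also write as C57BL/6J, with no transgene or deletion named in the sources. They were bought at 5 weeks of age and fed chow for 1 week before the diets. The LD gave 60% of its energy as fat and 20% as carbohydrate, the CD gave 10% and 70%, both gave 20% as protein, and each was fed for 20 weeks. Since fat and carbohydrate differed together, their effects cannot be told apart. Whole liver gave 10 RNA-seq libraries (5 of each diet) and 6 ChIP-seq libraries of H3K27ac (3 of each). Both transcription factors were profiled in 2 livers of each diet, as were promoter contacts by promoter capture Hi-C (PCHi-C), which the authors pooled into 1 list for each diet.

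RNA libraries held 31707963 to 39012699 counts. All 8 hepatocyte markers were present at summed levels of 79961 to 97155 CPM, which are counts scaled to a common library total, on LD and 86327 to 102817 CPM on CD, and 4 of them (Cps1, Ass1, Serpina1a and Tat) were called lower on LD. Hnf4a, also a hepatocyte marker, had a log2 fold change of -0.26 and an adjusted p of 0.0176 by edgeR. It missed the call only by the fold threshold. Of 5 stellate cell markers, 3 were called higher on LD, and their summed level was 510.4 to 704 CPM against 314 to 391 CPM. For macrophages, 1 of 6 markers (Cd68) was called higher, with summed levels of 353 to 872 CPM on LD and 274 to 544 CPM on CD. Of 8 adipocyte markers, Lep and Plin1 had no count, Adipoq and Retn had too few counts for the test, Cfd and Lipe were called higher and Adrb3 lower, and Car3, which was not called, made up nearly all of the list's summed level of 3548 to 5626 CPM on LD and 3040 to 4612 CPM on CD. None of the 4 endothelial, 4 cholangiocyte and 5 T and B cell markers were called by edgeR. The part of these cell types in the results was not tested, and in bulk liver fewer cells of a type and less RNA per cell cannot be told apart.

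For RNA, calls required a fold above 1.2 and a p under 0.05 from the quasi-likelihood test of edgeR after Benjamini-Hochberg adjustment over 13494 tested genes. By this rule 24.9% of all tested genes were called, 11.1% lower on LD and 13.8% higher. In numbers these were 1498 and 1859 genes, a split that limma on the deposited log2(TPM + 1) moved to 740 and 2220. Against this background stand 6 of 10 members lower and 0 higher. At an unadjusted p under 0.05, the numbers were 6 lower and 1 higher, DESeq2 called none higher, and limma on log2 TPM called 1 higher (Pgd). The median log2 fold change of LD over CD was -0.72 over the members and -0.0019 over all tested genes. The plot of CPM by mouse shows the values behind these calls.

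**Figure D1:**
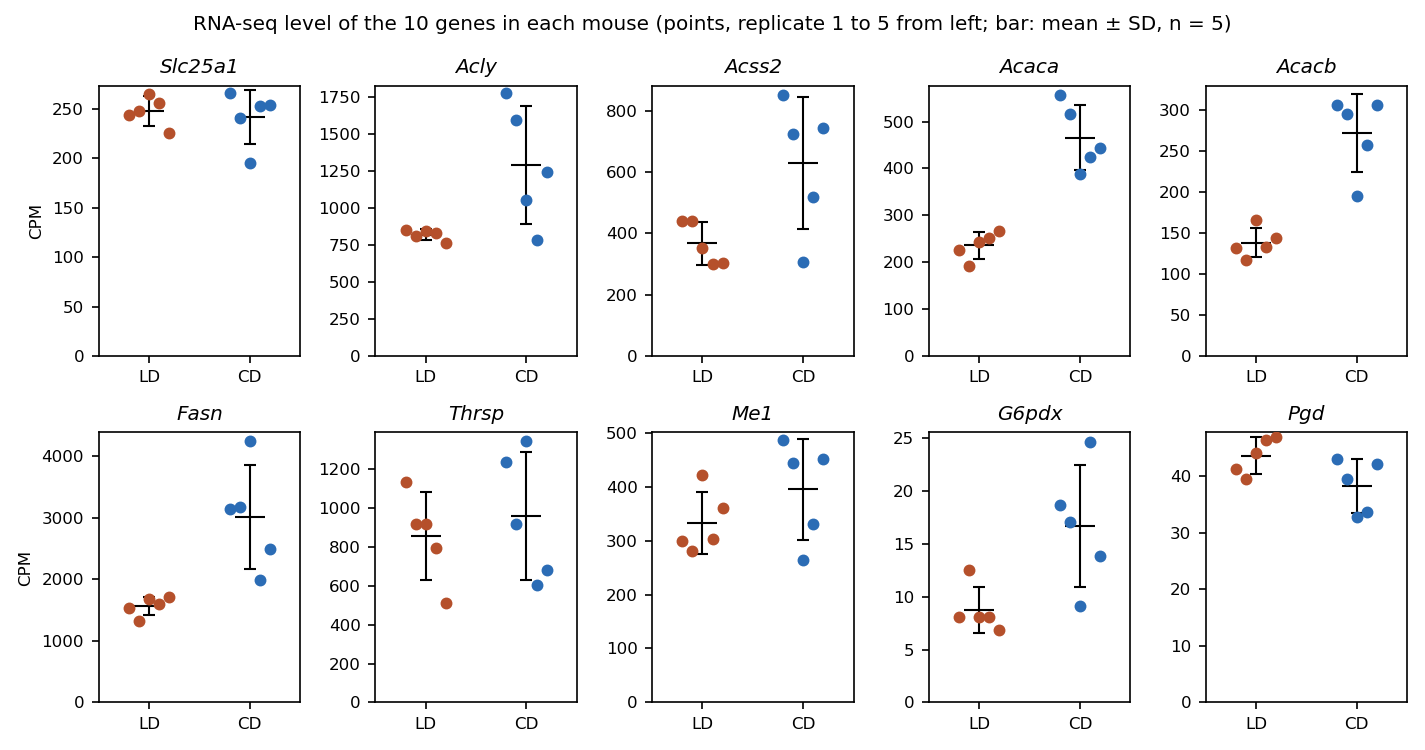
CPM of the 10 genes in each mouse (y axis, from 0) by diet (x axis), with points for mice in order of replicate number and a bar for the mean ± SD (n = 5). The diets separate without overlap for Acaca, Acacb and Fasn, while the CD mice spread widely for Acly, Acss2 and G6pdx.

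Among the genes of acetyl-CoA supply, 2 of 3 fell and the citrate carrier did not pass the test. Acly (Entrez 104112, mm9 chr11:100337666-100389314, minus strand) stood at 853, 812, 841, 831 and 765 CPM in LD mice 1 to 5 and at 1774, 1595, 1054, 781 and 1245 CPM in CD mice 1 to 5. The LD mice lay close together, with a coefficient of variation of 4.21% against 31.1% on CD, and CD mouse 4 lay within their range. Acly fell on LD, by edgeR, with a log2 fold change of LD over CD of -0.65 ± 0.181 (SE) and an adjusted p of 0.0192. The Acly call was lost under glmTreat, which tests against a fold of 1.2 (adjusted p = 0.0839). Acss2 (Entrez 60525, chr2:155343779-155388479, plus strand) had 439.2, 439.8, 353, 298 and 305 CPM on LD and 853, 726, 308, 519.6 and 742 CPM on CD. Of the CD mice, 4 were above all LD mice and CD mouse 3 was among them. Acss2 was called at a log2 fold change of -0.78 ± 0.249 (SE, edgeR) with an adjusted p of 0.0401, over a range of -0.95 to -0.63 and an adjusted p of 0.00168 to 0.127 across 18 alternatives. The Acss2 call was lost when LD mouse 2 (adjusted p = 0.0556), LD mouse 3 (0.0821), LD mouse 4 (0.0896), LD mouse 5 (0.0890), CD mouse 1 (0.0793), CD mouse 2 (0.0873) or CD mouse 5 (0.0814) was left out, and also without the filter on low counts (0.0743). The Acss2 call was lost too under limma on log2(TPM + 1) (0.0596) and log2(TPM + 0.1) (0.0569) and under glmTreat (0.127). Slc25a1 (Entrez 13358, chr16:17925304-17928312, minus strand) had 244, 248, 265, 256 and 226 CPM on LD and 266, 241, 196, 253 and 254 CPM on CD, so that the diets overlapped nearly in full. For this carrier the log2 fold change was 0.03 with a 95% interval of -0.15 to 0.22 (adjusted p = 0.794 by edgeR).

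Of the 4 genes that serve malonyl-CoA and its use, the 3 enzymes fell by about the same factor. Differences between the groups of members were not tested. Acaca (Entrez 107476, chr11:84008940-84215153, plus strand) had 226, 191, 243, 252 and 268 CPM on LD and 558, 516, 388, 424 and 444 CPM on CD. The highest LD mouse lay below the lowest CD mouse, and expression was 1.98-fold lower on LD (log2 fold change -0.98, standard error 0.112, adjusted p = 6.35e-05 by edgeR). Acacb (Entrez 100705, chr5:114615527-114700767, plus strand), the form tied to the mitochondrial surface and to the control of fatty acid oxidation, had 132, 117, 166, 133 and 144 CPM on LD and 306, 295, 195, 258 and 307 CPM on CD. The diets did not overlap here either, and the level was 1.97-fold lower on LD (log2 fold change -0.98, standard error 0.126, adjusted p = 0.000173). Fasn (Entrez 14104, chr11:120667272-120685861, minus strand) had 1536, 1330.3, 1678, 1599 and 1707 CPM on LD and 3151, 3173, 4240.4, 1989 and 2489 CPM on CD. It was 1.92-fold lower on LD without overlap (log2 fold change -0.94, standard error 0.166, adjusted p = 0.00153), although CD mouse 3 held more than 2 times the level of CD mouse 4. In all, 3 members were lower on LD without overlap of the diets and 0 were higher, against 8.35% and 10.2% of all tested genes.

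Thrsp (Entrez 21835, chr7:104561443-104566060, minus strand) did not pass the test. It had 1132, 916, 915, 793 and 512 CPM on LD and 1234, 919, 1346, 603 and 681 CPM on CD. Both diets spanned a range of about 2 to 1 between the highest and the lowest mouse, and the diets overlapped. Its log2 fold change was -0.16 with a 95% interval of -0.74 to 0.42 (adjusted p = 0.684 by edgeR), an interval that holds neither the estimate of Acaca nor that of Fasn. The difference between the genes was not tested.

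The promoters of Fasn and Thrsp are shown because both genes belong to this group and both hold the letters CCAAT, the core of the NF-Y site, while the RNA of Fasn fell and that of Thrsp did not pass the test. They are the 250 bases before the RefSeq start on build GRCm38.p6, which differs from the mm9 build of the data, written 5′ to 3′ on the minus strand, with CCAAT or its reverse complement ATTGG in capitals.
Fasn promoter, chr11:120824548-120824797: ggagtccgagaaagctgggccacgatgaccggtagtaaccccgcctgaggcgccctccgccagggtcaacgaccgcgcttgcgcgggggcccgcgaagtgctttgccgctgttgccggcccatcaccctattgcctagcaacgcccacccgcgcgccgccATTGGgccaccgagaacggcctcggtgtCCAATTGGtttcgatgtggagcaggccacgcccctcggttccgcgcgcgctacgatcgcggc
Thrsp promoter, chr7:97417551-97417800: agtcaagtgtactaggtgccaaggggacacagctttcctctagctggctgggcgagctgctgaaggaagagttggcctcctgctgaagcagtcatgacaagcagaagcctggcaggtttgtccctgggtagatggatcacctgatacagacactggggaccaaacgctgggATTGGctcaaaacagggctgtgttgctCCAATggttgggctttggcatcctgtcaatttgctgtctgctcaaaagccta
Fasn has 3 matches, at -90, -62 and -59 from the start, of which the last 2 overlap in the run CCAATTGG, and Thrsp has 2, at -79 and -52.

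All 10 members matched a RefSeq promoter, 12 promoters in all since Me1 and Pgd have 2 each, and each was read from 250 bases before to 50 after the start. CCAAT was found on either strand in 8 of the 12 promoters and in 8 members, against 37.4% of 32851 promoters. Acaca and G6pdx lacked these letters in this window. Acaca has other annotated starts 3367 to 65766 bp upstream of the one in the count table, and Acacb has another 18983 bp upstream. The promoters at those starts were not read. The E-box CACGTG was in 1 member promoter (Slc25a1) and in 7.15% of all promoters. The sterol regulatory element letters TCACNCCAC (1.24% of all promoters), the C/EBP letters TTGCNNAA (10.8%) and the Hnf4α letters CAAAGTCCA (0.475%) were in none of the 12 windows read. These are matches of letters and not sites shown to be bound.

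Of the 3 genes that make NADPH, G6pdx fell and Me1 and Pgd did not pass the test. G6pdx (Entrez 14381, chrX:71654825-71674500, minus strand), the first enzyme of the pentose phosphate pathway, had 8.09, 12.5, 8.13, 8.07 and 6.85 CPM on LD and 18.7, 17.1, 9.11, 24.6 and 13.8 CPM on CD. The diets overlapped only through LD mouse 2 and CD mouse 3, and the gene was 1.91-fold lower on LD (log2 fold change -0.93, standard error 0.246, adjusted p = 0.0168 by edgeR). The G6pdx call was lost under glmTreat (adjusted p = 0.0549). The near-identical copy G6pd2 had 3 counts in all LD libraries together and 2 in all CD libraries, against at least 245 counts of G6pdx in each library. Reads that map to both copies were not measured here, so the level of G6pdx is uncertain by that number. Me1 (Entrez 17436, chr9:86474970-86589947, minus strand) had 299, 281, 421, 304 and 361 CPM on LD and 486, 444, 264, 331 and 452 CPM on CD. CD mouse 3 had the lowest value of all 10 mice, and the log2 fold change was -0.25 with a 95% interval of -0.61 to 0.12 (adjusted p = 0.297). Pgd (Entrez 110208, chr4:148524094-148540816, minus strand), the next dehydrogenase after G6pdx, had 41.2, 39.4, 44.1, 46.4 and 47.0 CPM on LD and 43.1, 39.5, 32.7, 33.7 and 42.2 CPM on CD. Its log2 fold change was 0.19 (95% interval 0.0022 to 0.38, adjusted p = 0.124), and it was called higher by limma on log2(TPM + 1) (adjusted p = 0.0442), within a range of 0.0434 to 0.99998 over the alternatives.

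Per transcript length, Thrsp was the most abundant member on both diets, with 1459 ± 364 TPM, the authors' values scaled for length and library total (SD, n = 5), on LD and 1553 ± 516 TPM on CD. On CD it was followed by Fasn at 543 ± 155 TPM, Acly at 521 ± 152 TPM and Acss2 at 397 ± 130 TPM, 3 levels that do not differ beyond their spread. On LD the order of the next genes was Acly (351 ± 11.5 TPM), Fasn (300.2 ± 38.8 TPM), Slc25a1 (279.6 ± 9.76 TPM) and Acss2 (245 ± 44.3 TPM), and the SDs of Fasn, Slc25a1 and Acss2 overlapped. Of the 5 CD columns of TPM, 1 has a replicate number that matches no sample label and was taken as CD from the diet in its name. Slc25a1 stood at 259 ± 26.5 TPM on CD, where it ranked below Acss2. Me1 had 177 ± 34.6 TPM on LD and 198 ± 43.8 TPM on CD. The remaining genes were lower, with Acaca at 49.6 ± 7.82 and 92.5 ± 11.9 TPM, Acacb at 31.0 ± 4.69 and 57.5 ± 9.46 TPM, Pgd at 37.3 ± 3.99 and 30.8 ± 3.31 TPM, and G6pdx at 6.30 ± 1.44 and 11.4 ± 4.02 TPM on LD and CD.

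Among mice of the same diet, the members deviated mostly in 1 direction in some mice and in mixed directions in others. The heat map of deviations shows each mouse against the mean log2 CPM of its own diet. CD mouse 3 was above that mean for Thrsp (0.56) and Fasn (0.54), and below it for Acss2 (-0.95), G6pdx (-0.79), Me1 (-0.54), Acacb (-0.46) and the other 4 members. CD mouse 4 was low for Acly (-0.66), Thrsp (-0.59) and Fasn (-0.55) and high for G6pdx (0.64). CD mouse 1 was above the CD mean for all 10 members, from 0.11 for Fasn to 0.52 for Acss2 and Acly.

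**Figure D2:**
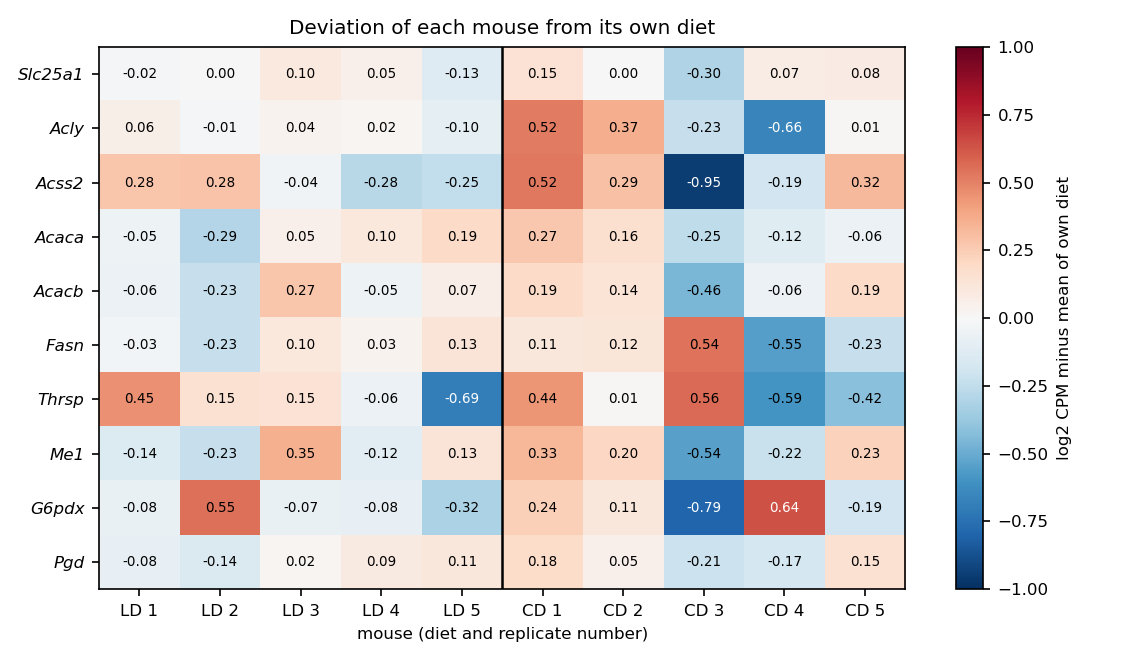
Deviation of log2 CPM in each mouse (x axis, diet and replicate number) from the mean of its own diet, for each member (y axis), with the colour scale from -1 to 1 on the log2 scale. Deviations are wider in the CD mice, and CD mouse 3 is high for Fasn and Thrsp and low for the other 8 genes.

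Over the 10 mice, after each gene was centred on its own diet, 31 of the 45 pairs of members had a positive Pearson correlation, 8 were above 0.7, and the median was 0.40. The highest was 0.97, between Acacb and Me1, and the lowest -0.80, between Fasn and G6pdx. Fasn correlated at 0.57 with Thrsp and at 0.40 with Acly, and at -0.61 with Slc25a1. Pairs of other genes were not examined, so whether these values exceed those of any gene set is not known. The correlations describe 10 livers, and the labels do not say how their libraries were batched.

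The genes outside the set whose pattern among mice was most like the members' mean, by Pearson correlation of diet-centred log2 CPM over the 10 mice and among 12063 genes of at least 1 CPM, were Psmd5 (0.941), Mvd (0.931), Oit3 (0.926), Ccdc53 (0.921), Rhob (0.921), Rdh14 (0.921), Fbxo18 (0.919), Zik1 (0.914), Fahd1 (0.908) and Arv1 (0.903). These are the top of a ranking of 12063 genes over only 10 mice. Such a ranking yields high values by itself, and no test was run on it. Mvd, a decarboxylase of sterol synthesis, was called higher on LD (log2 fold change 0.60, standard error 0.133, adjusted p = 0.00536 by edgeR), and the other 9 genes were not called between the diets.

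Around the members lie 43 genes of the same metabolism, listed by function, and all were tested. Of these, 2 were lower on LD, 10 were higher and 31 were not called, against 11.1% lower and 13.8% higher among all genes, with a median log2 fold change of 0.053. For acetyl-CoA and citrate, 5 of 16 rose and none fell by edgeR. Mpc1, a subunit of the mitochondrial pyruvate carrier, had 195 to 214 CPM on LD and 112 to 137 CPM on CD (log2 fold change 0.65, standard error 0.0685, adjusted p = 3.48e-05). Slc25a10, the dicarboxylate carrier of the mitochondrion, had 216 to 321 CPM on LD and 118 to 188 CPM on CD (0.81, adjusted p = 0.000818). Acss3, an acyl-CoA synthetase of the mitochondrion, had 52.7 to 67.7 CPM against 26.6 to 44.4 CPM (0.81, adjusted p = 0.000881). All 3 were higher in every LD mouse. Acss1 (0.86, adjusted p = 0.0222) and the citrate importer Slc13a5 (1.05, adjusted p = 0.0475) were called from mean levels of 1.03 CPM or less with overlapping diets. Their log2 fold changes were 0.26 and 0.24 by limma on log2(TPM + 1), and 0.72 and 0.78 on log2(TPM + 0.1). Among the genes of pyruvate dehydrogenase (Pdha1, Pdhb and Dlat), citrate synthase, the aconitases and the malate dehydrogenases, none was called by edgeR, nor was Pcx, although Mdh2 had an adjusted p of 0.0450 with a fold under the threshold.

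The call of Acss1 was lost without LD mouse 2 (adjusted p = 0.0612) or CD mouse 5 (0.0546), within a range of 0.0116 to 0.0762 over its alternatives. That of Slc13a5 did not hold in 9 of 10 fits with a mouse omitted, all but that without LD mouse 1, with adjusted p from 0.0571 to 0.133.

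In the NADPH group, 4 of 15 genes rose and 1 fell, against 13.8% and 11.1% of all tested genes. Idh2, the mitochondrial NADP-linked isocitrate dehydrogenase, had 130.4 to 206 CPM on LD and 101 to 109.9 CPM on CD (log2 fold change 0.69, standard error 0.111, adjusted p = 0.000673 by edgeR). Nnt, the gene of the mitochondrial transhydrogenase, had 61.7 to 89.4 CPM on LD and 48.4 to 55.5 CPM on CD (0.57, adjusted p = 0.00182). This is RNA only, and whether a working Nnt protein was made was not measured. Taldo1 (0.47, adjusted p = 0.00066) and Tkt (0.44, adjusted p = 0.00495), the transaldolase and transketolase of the non-oxidative pentose phosphate pathway, were higher in every LD mouse too. Aldh1l1, which makes NADPH from formyl-tetrahydrofolate, had 869 to 1362 CPM on LD and 1393 to 1574 CPM on CD and fell (-0.40, standard error 0.104, adjusted p = 0.0124). Idh1, the cytosolic NADP-linked isocitrate dehydrogenase, did not pass the test (0.08, adjusted p = 0.478). Nadk, the NAD kinase, had an adjusted p of 0.0383 with a log2 fold change of 0.23, below the fold threshold.

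In the control of malonyl-CoA, 1 of 12 genes rose and 1 fell, against 13.8% and 11.1% of all tested genes, so these counts are not above that background. Acsf3, which makes malonyl-CoA in the mitochondrion, had 23.6 to 32.3 CPM on LD and 17.8 to 25.8 CPM on CD (log2 fold change 0.41, adjusted p = 0.0160 by edgeR). Its call was lost under glmTreat (adjusted p = 0.200). Prkaa2, a catalytic subunit of AMP-activated kinase, which phosphorylates and inhibits the acetyl-CoA carboxylases, had 70.3 to 94.5 CPM against 87.6 to 137 CPM (-0.34, adjusted p = 0.0425). The Prkaa2 call was lost when LD mouse 2 (adjusted p = 0.0856), LD mouse 3 (0.0504), LD mouse 4 (0.0912), CD mouse 2 (0.0632), CD mouse 3 (0.0790), CD mouse 4 (0.109) or CD mouse 5 (0.0617) was left out, within a range of 0.0132 to 0.413 over all its alternatives. The Prkaa2 call was lost too under the replicate block (0.0665) and under limma on log2(TPM + 1) (0.205) and log2(TPM + 0.1) (0.201). The same held under glmTreat against a fold of 1.2 (0.413). Mlycd, which breaks malonyl-CoA down, did not pass the test (-0.13, adjusted p = 0.168), nor did Mid1ip1, a partner of Thrsp (-0.17, adjusted p = 0.588). The plot of fold changes sets these genes beside the members.

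**Figure D3:**
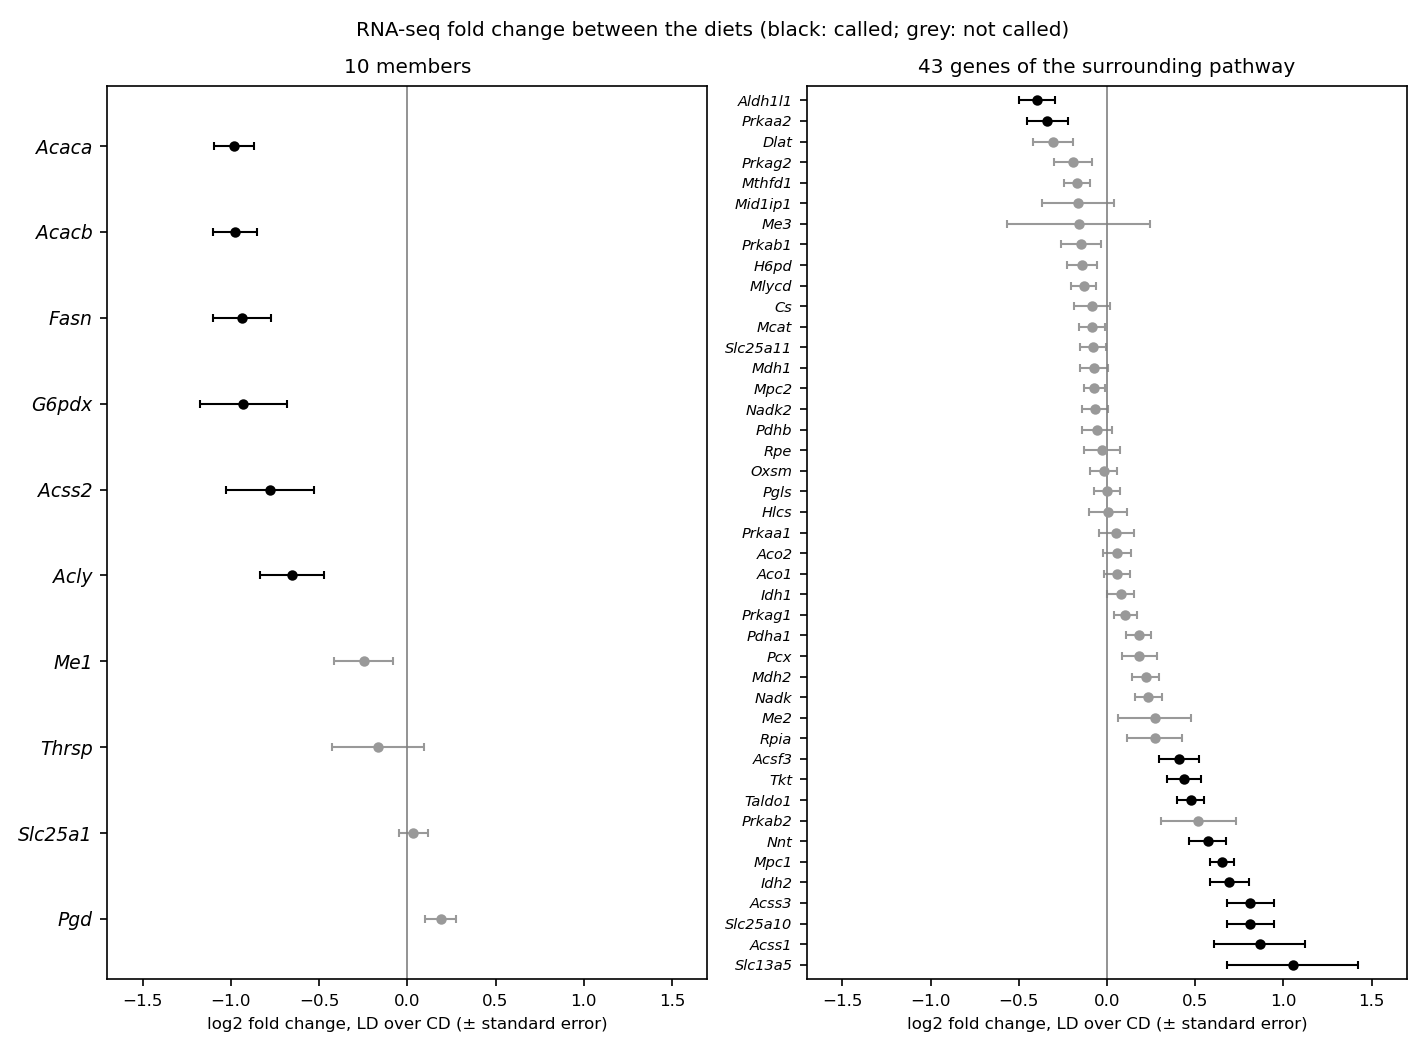
log2 fold change of LD over CD (x axis) with its standard error for the 10 members (left) and the 43 genes of the surrounding pathway (right), each in order of the estimate, with called genes in black and others in grey. The members' calls lie from -0.98 to -0.65, while 10 of the 12 calls of the surrounding pathway lie above 0.

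H3K27ac was measured as the share of each gene and 20 kb either side that lay under the deposited peaks of a library, and a gene was counted where the 3 LD and 3 CD libraries did not overlap. By this measure 6 members were lower on LD and none higher, against 5.83% of 13490 genes lower and 21.7% higher, so that the background ran the other way. The LD libraries covered 149.8 to 160.4 Mb of the genome and the CD libraries 139.7 to 145.4 Mb, and the median difference over all genes was 0.783 percentage points in favour of LD. With 3 libraries per diet the smallest two-sided p of an exact permutation test is 0.1, so that test cannot reach 0.05 for any gene. No other test was run on coverage, and the values are given as a description.

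Acly was covered by 55.4%, 51.3% and 50.4% in the LD libraries and by 67.2%, 69.8% and 64.7% in the CD libraries, a mean difference of -14.9 points. Acaca was covered by 24.9%, 20.6% and 19.1% on LD and by 32.7%, 31.7% and 36.8% on CD (-12.2 points). Fasn, the most densely covered member, had 64.5%, 56.3% and 54.6% on LD and 70.0%, 69.6% and 70.2% on CD (-11.5 points). In each of these 3 genes the highest LD library lay below the lowest CD library. Acss2 had 47.3%, 40.0% and 45% on LD and 51.8%, 54.6% and 58.9% on CD (-11.0 points). Me1 had 21.8%, 15.9% and 18.5% on LD and 26.8%, 30.6% and 29.3% on CD (-10.2 points), although its RNA did not pass the test. Acacb had 21.0%, 18.3% and 20.5% on LD and 27%, 28.5% and 27.5% on CD (-7.77 points). Each of the 6 genes was also lower without overlap when the gene body and the flanks were taken apart, and the counts of 6 lower and 0 higher were the same with windows of 10 kb and 50 kb and with 20 kb around the start site.

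**Figure D4:**
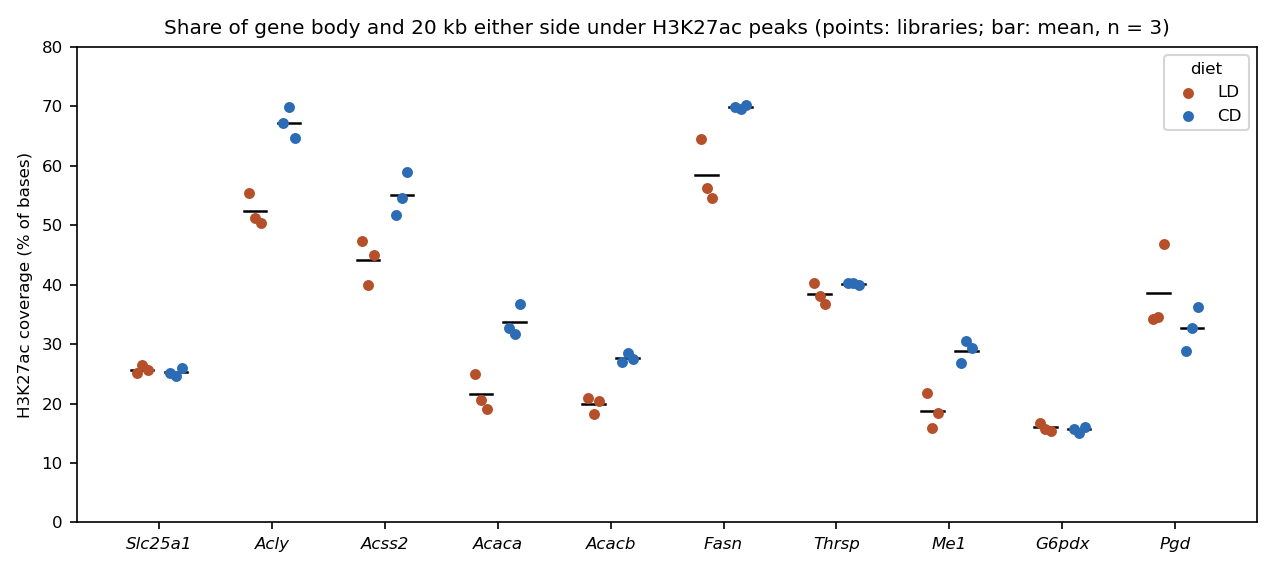
Share of each gene and the 20 kb on either side under H3K27ac peaks (y axis, percent of bases) for each member (x axis), with a point per library and a bar for the mean (n = 3). Acly, Acss2, Acaca, Acacb, Fasn and Me1 lie lower in all LD libraries, and Slc25a1, Thrsp, G6pdx and Pgd overlap.

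In the other 4 genes the diets overlapped. Slc25a1 had 25.1%, 26.5% and 25.6% on LD and 25.1%, 24.6% and 26.0% on CD, and G6pdx had 16.8%, 15.8% and 15.4% on LD and 15.8%, 15.1% and 16.1% on CD, although its RNA fell. Thrsp had 40.3%, 38.1% and 36.8% on LD and 40.3%, 40.3% and 39.9% on CD, and its gene body was covered in full in all 6 libraries. Without LD library 1 its diets no longer overlapped, with LD lower. Pgd had 34.2%, 34.6% and 46.9% on LD and 28.9%, 32.8% and 36.3% on CD, and without CD library 3 the diets no longer overlapped. Within the Pgd gene body alone, coverage was higher on LD without overlap, at 24.7%, 34.2% and 55.7% against 13.9%, 21.1% and 22.3%.

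Peaks merged over the 6 libraries formed 76 H3K27ac loci at the members, 40 of them with a peak in every library, and the start site lay under a merged locus in all 10 genes, although at Acacb that locus had a peak in 2 CD libraries and in no LD library. At 3 loci all CD libraries and no LD library had a peak (0.757% of 50205 loci genome-wide), and at 1 locus the reverse held (3.13%). The CD-only loci lay in the Acacb gene at chr5:114619400-114621399 and chr5:114639000-114641399 and in the Me1 gene at chr9:86482000-86484999. The LD-only locus lay in the Pgd gene at chr4:148528400-148531599.

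Acly, Acss2, Acaca, Acacb and Fasn, 5 of the 10 members, were both called lower in RNA and lower in H3K27ac without overlap, a combination found in 2.02% of 13486 genes. Among all genes called lower in RNA, 18.2% had lower coverage without overlap, against 4.85% of genes not called and 1.18% of those called higher. G6pdx was lower in RNA only and Me1 in H3K27ac only.

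Hnf4α and C/EBPα peaks were merged in the same way, and loci seen in fewer than 2 libraries were dropped. Height is the authors' tag count of a peak, scaled to a common library size and here centred on the library's median for the test. Loci with a peak in all 4 libraries were tested with limma and called at an adjusted p under 0.05 and a fold above 1.5, and the others were described by presence. CD library 1 of Hnf4α stood apart from the others, with a median peak height of 15.2 against 19.2 to 21.5, and 35143 peaks against 44247 to 47992.

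The members had 55 Hnf4α loci, all of which overlapped an H3K27ac locus (78.8% genome-wide), and 27 had a peak in all libraries. With 2 libraries per diet the test can miss real differences. By limma none of the 27 was called, where 0.274% of 23344 loci were called, 0.0471% lower and 0.227% higher. In numbers these were 11 and 53 loci, with 0 and 3 without centring and 23 and 89 under quantile normalization. At an unadjusted p under 0.05, 3 were lower and 0 higher, and edgeR on whole tag counts, an alternative added after the data were seen, called 1 lower and 0 higher. The planned limma fit with replicate number as a block also called 1 lower. After centring, heights did not overlap between the diets at 5 loci lower and 7 higher on LD, against 29.3% and 24.1% of all loci, and the median log2 change was -0.05 against -0.04.

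The largest Hnf4α difference lay at -4389 bp from the Acaca start, at chr11:84004426-84004668, inside an intron of a longer Acaca transcript. Heights there were 23.8 and 20.8 on LD and 28.5 and 52.2 on CD, a centred log2 change of -0.98 (standard error 0.193, adjusted p = 0.0690 by limma). It passed the threshold with whole tags (adjusted p = 0.0189) and not without centring (adjusted p = 0.9997). The tallest Hnf4α peaks at the members were in an intron of Acly, 12764 bp into the gene (189.5 and 147 on LD, 153 and 206 on CD), at -6419 bp from the start of Fasn (113 and 116.5 on LD, 74.5 and 165 on CD) and at -6309 bp from that of Thrsp (119 and 102 on LD, 85.2 and 150 on CD). At these 3 loci the uncentred heights of the diets overlapped.

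By presence, 3 Hnf4α loci had a peak in both CD and no LD library (3.96% of 45851 loci) and 2 in both LD and no CD library (7.49%). Among the CD-only loci was that at the Thrsp promoter, centred at -238 bp from the start at chr7:104566180-104566415, with heights of 21.5 and 43.2. At Acacb, CD-only loci lay at -19325 bp (15.8 and 32.8) and -8457 bp (28.2 and 42.2) from the start, and an LD-only locus lay at -8037 bp (43 and 29.2), close to the second of these. These neighbours lay at chr5:114606955-114607183 (CD-only) and chr5:114607375-114607597 (LD-only). They were counted apart, and whether they are the same bound region was not tested. The other LD-only locus lay in Acly, 41924 bp into the gene (15.8 and 16).

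C/EBPα had 51 loci at the members, 48 of them overlapping an H3K27ac locus (94.1%, against 75.4% genome-wide), and 24 had a peak in all 4 libraries. Of these 24, 2 were called lower on LD and 1 higher, where 9.75% of 13813 loci were called, 3.58% lower and 6.18% higher. In numbers these were 494 and 853 loci, and without centring 540 and 185, where 2 member loci were lower and 1 higher. After centring, which the printed heights do not have, heights did not overlap at 11 loci lower and 5 higher on LD, against 34.9% and 24.4% of all loci, and the median log2 change was -0.21 against -0.10. Before centring, CD library 1 had the highest median log2 height, 5.23 against 4.58 to 4.67 in the others.

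Both lower calls were in Acly. One lay in an intron 9563 bp into the gene, at chr11:100379579-100379936, with heights of 15 and 13 on LD and 39 and 31 on CD. The peak was 2.01-fold lower on LD (centred log2 change -1.01, standard error 0.253, adjusted p = 0.0315 by limma). The other overlapped an exon 22887 bp into the gene, at chr11:100366262-100366588, with heights of 23 and 41 on LD and 87 and 69.5 on CD (-1.03, standard error 0.291, adjusted p = 0.0472). The intron call was lost without LD library 2 (adjusted p = 0.129), CD library 1 (0.0665) or CD library 2 (0.116), and the exon call without LD library 1 (0.191), CD library 1 (0.0855) or CD library 2 (0.127) and under quantile normalization (0.0723).

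The higher call was in an intron of Me1, 52671 bp into the gene, at chr9:86537075-86537502. Heights were 73.5 and 71.5 on LD and 35.5 and 18 on CD. The peak was 3.55-fold higher on LD (centred log2 change 1.83, standard error 0.255, adjusted p = 0.00319 by limma), and it was called in all 8 alternatives, with log2 changes of 1.52 to 2.03. At the same place an Hnf4α peak was found in LD library 2 (9.25) and CD library 2 (16) only. The neighbouring C/EBPα locus 48193 bp into Me1 had heights of 37 and 48.5 on LD and 46 and 24 on CD (0.66, adjusted p = 0.120 by limma), and edgeR on whole tags called it higher (adjusted p = 0.0317).

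**Figure D5:**
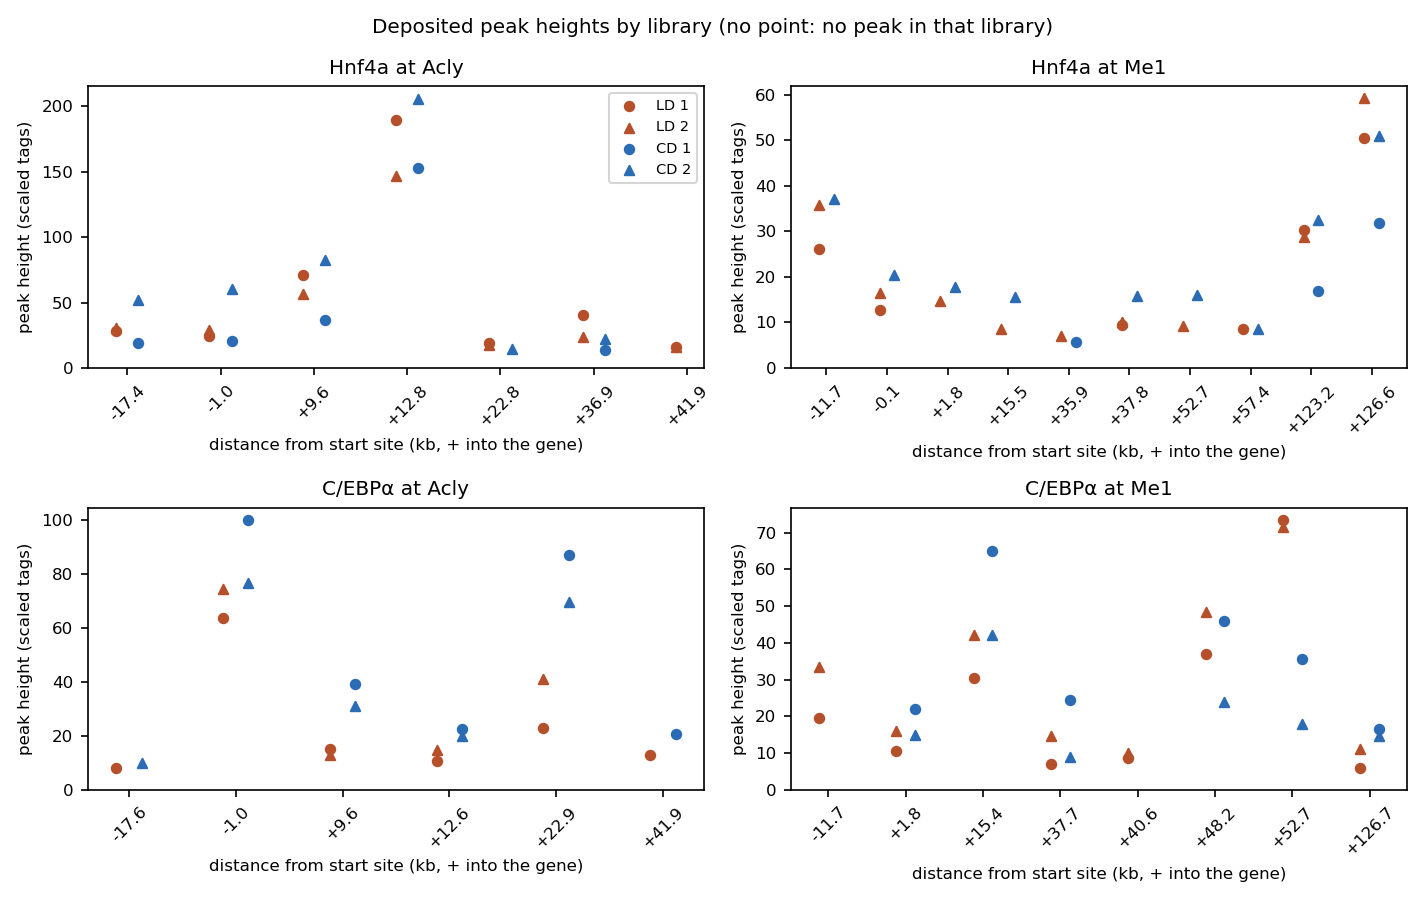
Deposited peak heights of Hnf4α (top) and C/EBPα (bottom) at loci of Acly (left) and Me1 (right), by distance from the start site in kb (x axis, loci in order and not to scale), with a point per library and none where the library had no peak. C/EBPα at +9.6 and +22.9 kb of Acly is lower and at +52.7 kb of Me1 higher in both LD libraries.

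The sequences of the 3 C/EBPα loci called between the diets are given because they are the factor loci of the members that passed in the limma fit of centred heights. Each is the 200 bases around the mean peak centre on mm9, plus strand, 5′ to 3′, with matches to TTGCNNAA (C/EBP) and CAAAGTCCA (Hnf4α) or their reverse complements in capitals.
Acly intron, lower on LD, chr11:100379651-100379850: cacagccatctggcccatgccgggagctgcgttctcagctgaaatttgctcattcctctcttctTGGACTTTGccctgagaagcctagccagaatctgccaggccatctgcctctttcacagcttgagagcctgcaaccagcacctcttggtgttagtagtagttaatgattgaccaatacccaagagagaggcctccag
Acly exon, lower on LD, chr11:100366327-100366526: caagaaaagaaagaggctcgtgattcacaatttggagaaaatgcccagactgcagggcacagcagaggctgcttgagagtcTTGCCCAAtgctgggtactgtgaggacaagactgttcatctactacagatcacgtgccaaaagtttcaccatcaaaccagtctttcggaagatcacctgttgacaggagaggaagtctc
Me1 intron, higher on LD, chr9:86537176-86537375: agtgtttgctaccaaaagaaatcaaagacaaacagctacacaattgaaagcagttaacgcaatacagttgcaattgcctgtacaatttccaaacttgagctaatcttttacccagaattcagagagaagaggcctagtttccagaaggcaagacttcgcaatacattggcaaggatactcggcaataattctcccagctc
The Acly exon locus holds 1 match to the C/EBP letters and the Acly intron locus 1 match to the Hnf4α letters, and the Me1 locus holds neither. Over all 51 member loci of C/EBPα, 21 held the C/EBP letters within such a window, against 40.9% of all C/EBPα loci, and 3 of the 55 Hnf4α loci held the Hnf4α letters, against 5.13% of all.

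By limma Fasn had no C/EBPα call, and 3 of its 4 tested loci were lower in both LD libraries, as were 34.9% of all tested loci after centring. At 2647 bp into the gene, heights were 16.5 and 19.5 on LD and 44 and 33 on CD (centred log2 change -0.78, adjusted p = 0.0664 by limma). Beyond the end of the gene, in an exon of Dus1l 28047 bp from the start, they were 31 and 43.5 on LD and 102 and 62 on CD (-0.80, adjusted p = 0.0696), and edgeR on whole tags called this locus lower (adjusted p = 0.0141). In an intron of Ccdc57, at -6326 bp, they were 86.5 and 82 on LD and 192.5 and 114 on CD (-0.50, adjusted p = 0.195). The adjusted p of these loci over whole tags, the other scalings and the fits without a library ran from 0.0141 to 0.503.

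By presence, 8 C/EBPα loci had a peak in both LD and no CD library (15.3% of 33006 loci) and 2 in both CD and no LD library (5.22%). The Thrsp start site was among the LD-only loci, with heights of 20 and 16 at chr7:104565944-104566230, so that at the promoter printed above C/EBPα was listed on LD only and Hnf4α on CD only. The CD-only loci were at -475 bp from the start of Acacb (8.5 and 10) and in the flank of G6pdx (12 and 8.5). Of the 55 Hnf4α loci, 30 overlapped a C/EBPα locus (54.5%, against 39.3% of all Hnf4α loci), and 30 of the 51 C/EBPα loci overlapped one of Hnf4α (58.8%, against 54.6%).

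PCHi-C lists give, for each promoter bait, the restriction fragments in contact with it at a CHiCAGO score of at least 5 within 1 Mb. With 1 pooled list per diet there is no replicate and no test. Baits of 6 members had any interaction, 30 on LD and 36 on CD, of which 22 linked the same fragments on both diets. This is 22 of 30 on LD and 22 of 36 on CD, where 69.6% of the LD list and 70.3% of the CD list were shared genome-wide. For Slc25a1, Acly, Acaca and Pgd no interaction was listed. Either none reached the score or the gene had no bait, which the lists do not show.

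Acss2 had 13 interactions on each diet, 12 of them shared, from a bait that also holds Ggt7. The highest score was that with the fragment of Procr, 241 kb away, at 28.8 on LD and 17.9 on CD. Me1 had 5 on LD and 8 on CD, with all 5 of LD shared, from a bait that also holds A330041J22Rik. The fragment chr9:86536965-86545445, which holds the C/EBPα locus that was higher on LD, was listed with the Me1 bait on CD only, at a score of 5.40 and a distance of 45.7 kb. G6pdx, on a bait shared with Ikbkg, had 4 on LD and 7 on CD with 3 shared, and its strongest were with fragments of Hcfc1 (6.5 on LD and 9.83 on CD) and Flna (8.36 and 8.64).

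Fasn had 4 interactions on LD and 3 on CD with 2 shared. Thrsp had 4 on each diet and shared no fragment, although all 8 fragments lay 238 to 326 kb away on the same side of the bait. Their scores were 5.08 to 7.51, close to the cutoff of 5, and some LD fragments directly adjoined a CD fragment. Acacb had a single interaction, on CD at a score of 5 with the fragment of Usp30, from a bait at another annotated start upstream of the one in the count table. Of the 44 distinct fragments in contact with a member, 27 held an H3K27ac locus, 15 an Hnf4α locus and 14 a C/EBPα locus. The shares over all fragments of the lists were not computed, so whether these counts are high or ordinary is not known.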

How the data were processed

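RNA, ChIP and PCHi-C data of livers were grouped by the diet in the labels. The members and all lists were chosen with earlier results of these data known. RNA counts were deposited without normalization: the authors aligned reads to mm9 with STAR and counted them by strand with featureCounts 1.5.0-p1 on RefSeq genes. The authors also deposited TPM, whose gene lengths are not given in the sources used here, beside columns of their own comparison (call, fold change and false discovery rate), which were not used. Counts were tested with the quasi-likelihood fit of edgeR 4.0.16 (robust, genes kept by filterByExpr, TMM factors) in R 4.3.3, with SE taken from the fold change and F statistic. Alternatives were DESeq2 1.42.0, its size factors, other filters, limma 3.58.1 on log2(TPM + 1) and log2(TPM + 0.1), a replicate block, glmTreat and the omission of each library. Named by rule were the members, called genes of the pathway list and the 10 genes most like the members' mean. Markers and pathway genes that were not called were named after their values were seen.

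H3K27ac intervals were called by the authors with SICER per library. Factor peaks were called by the authors with HOMER, who deposited a signal (tags scaled to a common size), tested here with limma, and whole tag counts, tested with edgeR as an alternative. The CHiCAGO score of PCHi-C was computed by the authors on pooled replicates. TAD lists and inputs were not used here. Peak lists and sequences were read with Python 3.11.15, pandas 2.3.3, numpy 2.4.6 and samtools 1.23.1, and promoters came from RefSeq. The RNA and peak height tests and the H3K27ac comparison were run on simulated data, where the height tests with 2 libraries per diet missed many of the changes put in. In TPM, 1 CD column was assigned by diet alone, since its replicate number matches no label, and the limma fits on TPM include it. No pair of RNA libraries agreed within sampling noise. The sources count the samples as separate animals.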

Additional observations from a re-analysis of the deposited data

Results flagged for a closer look

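Of 44 groups of 5 mice examined for a single mouse far from the others, 3 had one, and chance gives about 1 in 20. LD mouse 2 had 12.5 CPM of G6pdx, where the other LD mice had 6.85 to 8.13 CPM. CD mouse 1 had 142 CPM of Taldo1, where the other CD mice had 112 to 120 CPM (111.8 to 119.7). LD mouse 5 had 214 CPM of Mpc1, where the other LD mice had 195 to 200.1 CPM.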

How the results depend on the processing

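Among the members, the called pathway genes and the called loci, no call changed its direction. Mvd and the cell type markers were not compared across the alternatives. Of the members, Acaca, Acacb and Fasn were called in all 18 alternatives, Acly and G6pdx in 17 and Acss2 in 7. The members called lower were 3 under glmTreat, and those called higher were 1 under limma on log2(TPM + 1) and on log2(TPM + 0.1). In the surrounding pathway, the genes called lower were 1 under both TPM fits, 1 under the replicate block and 0 under glmTreat, which called 6 higher, and they were 1 to 2 over the fits that left out a mouse. Over all genes, glmTreat called 459 lower and 919 higher and the TPM fits 740 and 2220 or 782 and 2337, against 1498 and 1859, while the TPM fits moved the median of all genes by 0.06 to 0.07 on the log2 scale. Without CD replicate 3, the members with higher H3K27ac coverage were 1, and otherwise 0.

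The replicate numbers did not pair the samples: the correlation of same-numbered mice was -0.078 to 0.191 for RNA, and of libraries 0.0154 for Hnf4α and -0.0472 for C/EBPα. In RNA, 1 of 5 LD mice correlated best with the CD mouse of its own number, a hint from the data only. The replicate block called 1355 and 1818 genes in RNA, and 1 member locus of Hnf4α lower. Whole tags called 1 Hnf4α locus lower, and 3 C/EBPα loci lower and 2 higher, where over all C/EBPα loci it called 811 and 1493. C/EBPα loci lower were 1 under quantile normalization, 1 within 20 kb of the start site, where those higher were 0, and 0 to 1 over the fits that left out a library. Without centring, C/EBPα calls over all loci were 540 lower and 185 higher, against 494 and 853. Hnf4α calls over all loci went from 0 to 158 over the fits without a library, with 178 lower and 441 higher under the block, and 531 and 944 on whole tags, against 11 and 53. At scores of at least 7, the members' interactions were 10 on LD, 17 on CD and 9 shared, and at scores of at least 10 they were 4, 3 and 3. In all these cases the cause was not tested. Peak lists hold no reads outside peaks, so depth at loci without a peak is unknown.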
